A study of Homo sapiens with 6 samples.

Results

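Small nucleolar RNAs and their Cajal body relatives were read here in TF-1, a human erythroleukaemia line that depends on a cytokine for growth. Members were the probe sets of a whole-transcript expression array annotated to exactly 1 gene symbol beginning with SNORA, SNORD or SCARNA. For the 5 genes with several such probe sets, the one with the highest mean signal was taken. This gave 192 genes of 18377 tested: 61 SNORA, 115 SNORD and 16 SCARNA. Control cells (3 arrays, numbered 1 to 3) carried the pEGFP vector, and PRL-3 cells (3 arrays, numbered 4 to 6) carried human PRL-3, the phosphatase encoded by PTP4A3. The medium of both was 90% RPMI and 10% fetal bovine serum, supplemented with interleukin-3 at 5 ng/ml. The labels give neither the promoter of the constructs nor whether a line was 1 clone or a pool. Nor do they name separate cultures behind the 3 arrays of a group. Every p-value below therefore reflects variation among these arrays alone, and that variation may be technical. The study asked what PRL-3 does in leukaemia cells.

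Most of these RNAs are cut out of introns of other genes, called hosts, and guide enzymes to precise bases of other RNAs by base pairing. SNORD genes make C/D box RNAs, which direct 2'-O-methylation of ribosomal RNA by fibrillarin. SNORA genes make H/ACA box RNAs, which direct pseudouridylation by dyskerin. SCARNA genes make RNAs of either or both box types that stay in Cajal bodies and guide modification of spliceosomal RNAs. They are very short, and the RNeasy columns named in the labels favour longer RNA. What part of each signal came from mature small RNA and what part from unspliced host RNA was not tested.

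PTP4A3 matched the group labels, at 7.97 ± 0.056 with the vector and 10.84 ± 0.076 with PRL-3 (mean ± SD of log2 intensity, n = 3 per group). Array medians ran from 89.8 to 92.9 on the linear intensity scale. All 9 markers listed for TF-1 were measured. In control arrays the transferrin receptor gene TFRC read 12.73, MYB 11.34, CD34 10.28, CSF2RB 9.26 and GATA2 8.86. GATA1 read 8.14, KIT 7.70, EPOR 7.08 and IL3RA 6.66. The mean signal of IL3RA lay above that of 53.0% of all genes and that of EPOR above 57.0%. With PRL-3, KIT rose by 1.01 (log2, adjusted p = 0.000721) and TFRC fell by 0.52 (adjusted p = 0.00274, limma), and the other 7 did not pass. Of 7 measured markers of other cells, the liver gene ALB (4.99) and the B cell gene MS4A1 (5.05) read near the low end of the array, where the lowest value was 4.23. EPCAM read 5.33, CD3E 5.73, CD79A 6.42 and COL1A1 7.20 in control arrays. COL1A1 was not dim, as its mean signal lay above that of 62.1% of all genes. PECAM1, listed for endothelial cells, was bright, at 10.53 in control arrays. Intensities of different probe sets are not on 1 scale of abundance, so levels are compared below only within a gene.

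The ACA box of the H/ACA class could be read in 1 member whose end overlaps an annotated microRNA hairpin. These are the last 77 bases of SCARNA16 (RefSeq, GRCh38.p14, chr17:77089417-77089493, + strand, 5′ to 3′), with the ACA box in capitals. It stands 3 bases from the end of the RNA.
SCARNA16: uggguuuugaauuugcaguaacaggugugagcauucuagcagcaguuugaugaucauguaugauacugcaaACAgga

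Hosts were taken as the genes that span a member in the RefSeq gene table. They were named for 188 members, in 103 host genes; 2 members had no spanning gene and 2 lay in several with no clear choice. Protein-coding genes held 113 members and long non-coding RNA genes 74, and 34 members lay in 20 ribosomal protein genes. Many hosts are known for a terminal oligopyrimidine start: transcription begins at a C followed by a run of C and T, through which growth signals control translation. The starts below are those of some of the hosts named in the results, picked to show starts with and without such a run. Each goes from 30 bases before to 20 bases after the RefSeq start (5′ to 3′). Capitals mark an initial C with the C and T bases that follow it without a break. The run is 5 to 11 bases long in RPS3, RPL13A, RPL27A, SNHG5 and ZFAS1. It is 3 bases in HSPA8 and in SNHG1, which is not shown, and there is none at the annotated start of NCL or ATG16L1.
RPS3, chr11:75399488-75399537 (+): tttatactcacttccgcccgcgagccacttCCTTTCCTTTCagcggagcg
RPL13A, chr19:49487578-49487627 (+): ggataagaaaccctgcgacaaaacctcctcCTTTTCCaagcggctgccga
RPL27A, chr11:8682762-8682811 (+): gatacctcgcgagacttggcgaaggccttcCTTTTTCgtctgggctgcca
SNHG5, chr6:85678714-85678763 (-): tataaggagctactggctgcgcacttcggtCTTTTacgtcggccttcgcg
ZFAS1, chr20:49278612-49278661 (+): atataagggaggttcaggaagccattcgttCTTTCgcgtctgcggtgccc
HSPA8, chr11:123062117-123062166 (-): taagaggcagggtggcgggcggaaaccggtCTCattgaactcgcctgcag
NCL, chr2:231464465-231464514 (-): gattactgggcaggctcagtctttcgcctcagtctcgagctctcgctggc
ATG16L1, chr2:233251643-233251692 (+): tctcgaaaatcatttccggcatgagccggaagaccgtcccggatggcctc
An initial C with at least 4 further C or T bases stood at the start of 26 of 85 hosts in the promoter table, or 30.6%, against 4.04% of all 27305 genes in it. Among ribosomal protein hosts it was 10 of 12, among long non-coding hosts 5 of 17 and among the others 11 of 56. This is a description of annotated starts, which can lie a few bases from the true one.

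Between PRL-3 and control cells, few members differed. By limma with Benjamini-Hochberg adjustment over all 18377 genes, 9 of 192 passed adjusted p 0.05, 3 higher and 6 lower with PRL-3. That is 4.69% of the members, against 7.69% of all genes (4.58% higher, 3.11% lower). An unadjusted p under 0.05 was found for 35 members, or 18.2%, against 20.2% of all genes. Without control 1 and PRL-3 5, arrays that stand apart from the others within their groups, 11 members passed, 5 higher and 6 lower, or 5.73% against 6.34% of all genes. SNORD116-14, SNORD116-21, SNORA55, SNORA75 and SNORD14C were among them, and SNORD116-20, SNORD15B, SNORD20 and SCARNA5 were not. An unequal-variance test of each gene called 0 members, with 14 at an unadjusted p under 0.05, and a fit with array weights called 18 higher and 29 lower, when 24.1% of all genes passed. No member reached a 2-fold difference. Of all 18377 genes only 86 did, too few to read their absence among 192 members as a result. The groups did not overlap in 20.8% of the members, 14 higher and 26 lower, against 24.3% of all genes (12.1% higher and 12.2% lower). An exact two-sided permutation test of a single member cannot give less than p = 0.1 with 3 against 3 arrays. A further 76 probe sets name a small RNA together with other genes, often the host, and no gene is named from them. Of these, 10 passed, all higher with PRL-3, or 13.2%. In the same fit 4.85% of all 28869 probe sets passed, 2.87% higher, but only 19310 of the 28869 have 1 symbol. Among genes with 1 symbol, fitted apart, 7.69% passed, 4.58% higher. The balance of 3 to 6 is that of singly annotated genes only.

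**Figure D1:**
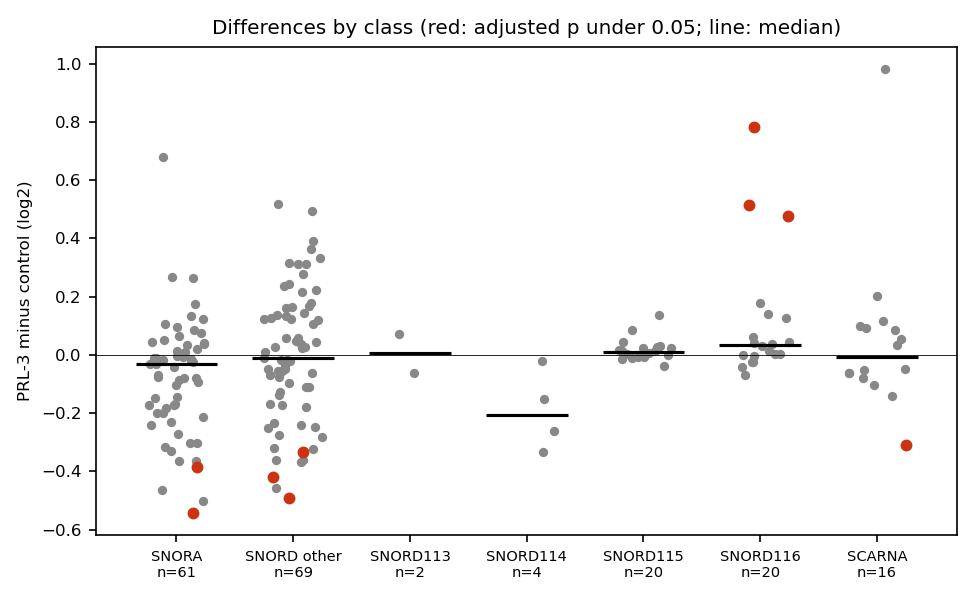
Each point is 1 gene, with its log2 difference, PRL-3 minus control, by class; large repeat families of SNORD stand apart from the other SNORD genes, red marks adjusted p under 0.05 in limma and the line is the median. The 3 red points above 0 are all SNORD116 copies, the 6 below 0 lie in SNORA, the other SNORD genes and SCARNA, and SNORD115 stays within -0.04 to 0.14.

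The 3 members that rose were copies of SNORD116, a C/D box family repeated along the imprinted Prader-Willi region of chromosome 15 inside the long transcript SNHG14. SNORD116 RNAs match no ribosomal RNA site and have no settled target. SNORD116-21 read 4.75, 4.69 and 4.53 in the control arrays and 5.34, 5.60 and 5.38 in the PRL-3 arrays (log2 intensity, arrays in order of number). It rose by 0.78 ± 0.095 (log2, SE), or 1.72-fold, with adjusted p = 0.00281 in limma. SNORD116-14 read 4.54, 4.51 and 4.48 in control and 5.10, 4.93 and 4.94 in PRL-3 arrays, a rise of 0.48 ± 0.073 (adjusted p = 0.007, limma). All 3 PRL-3 arrays lay above all 3 control arrays for both copies, and both passed with any single array left out. Their control values lie near the lowest value on the array, in the range of the dim SNORD115 copies, so the folds rest on signals near background, and both filters on dim genes removed these copies. SNORD116-20 read 5.81, 5.69 and 5.50 in control and 5.96, 6.24 and 6.35 in PRL-3 arrays, a rise of 0.52 ± 0.121 (adjusted p = 0.0394, limma). Its groups were separated by a smaller gap. It did not pass without control 2, control 3, PRL-3 5 or PRL-3 6, where adjusted p reached 0.141 in limma. Both filters on dim genes removed this copy as well.

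The other 17 SNORD116 copies measured did not pass, and the median over the 20 copies was 0.03. SNORD116-15 read 7.35, 7.63 and 7.83 in control and 7.91, 7.29 and 8.04 in PRL-3 arrays. Its groups overlapped, with the lowest value of each in control 1 and PRL-3 5. The copies resemble each other and lie side by side, so a probe set may read more than 1 of them. Whether the copies differ from each other in their response was not tested. SNORD115, the neighbouring family, which is known from neurons, had 20 copies with differences from -0.04 to 0.14 and none past the threshold. Their mean signals were 4.32 to 4.79, close to the lowest value on the array. SNHG14 itself had no probe set with 1 symbol, so the host transcript was not analysed here.

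The 6 members that fell lay in 5 protein-coding hosts. SNORA55, an H/ACA RNA in an intron of PABPC4, a cytoplasmic poly(A)-binding protein gene, read 7.85, 7.71 and 7.68 in control and 7.25, 7.09 and 7.27 in PRL-3 arrays. It fell by 0.54 on the log2 scale (SE 0.082), which made it 1.46-fold lower, with adjusted p = 0.00683 in limma. It passed with any single array left out. SNORD14C, a C/D box RNA of the family that acts on small subunit ribosomal RNA, is carried by HSPA8, the constitutive HSP70 chaperone gene. It read 9.49, 9.66 and 9.60 in control and 9.18, 9.10 and 9.20 in PRL-3 arrays. It fell by 0.42 (SE 0.073, adjusted p = 0.0123, limma) and lost the call without control 2 or PRL-3 4, where adjusted p reached 0.0704. SNORD15B, in an intron of the ribosomal protein gene RPS3, read 8.16, 7.99 and 7.75 in control and 7.42, 7.49 and 7.52 in PRL-3 arrays. Its fall of 0.49 (SE 0.106, adjusted p = 0.0294, limma) passed in 1 of the 6 fits that left out an array, the one without control 3. In each of these 3 genes no PRL-3 array reached the lowest control array.

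SNORA75 and SNORD20 share a host, NCL, which encodes nucleolin, a nucleolar protein that acts in the first steps of ribosomal RNA processing. SNORA75, of the H/ACA class, read 6.85, 7.04 and 6.80 in control and 6.51, 6.62 and 6.40 in PRL-3 arrays. It fell by 0.38 (log2, SE 0.092, adjusted p = 0.0431, limma) and lost the call without control 1, control 2, PRL-3 4 or PRL-3 6, with adjusted p up to 0.161. SNORD20, a C/D box RNA, read 5.32, 5.37 and 5.31 in control and 5.03, 4.85 and 5.11 in PRL-3 arrays. It fell by 0.34 (SE 0.082, adjusted p = 0.0455, limma) and passed in none of the fits that left out 1 array, where adjusted p ran from 0.0617 to 0.175. SCARNA5, the Cajal body RNA in ATG16L1, an autophagy gene, read 9.19, 9.05 and 9.04 in control and 8.85, 8.70 and 8.80 in PRL-3 arrays. Its fall of 0.31 (SE 0.076, adjusted p = 0.0467, limma) also passed in none of those fits, with adjusted p from 0.0531 to 0.142. The control and PRL-3 arrays did not overlap in any of these 3 genes. SCARNA6, the other Cajal body RNA in ATG16L1, differed by -0.08 and did not pass.

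**Figure D2:**
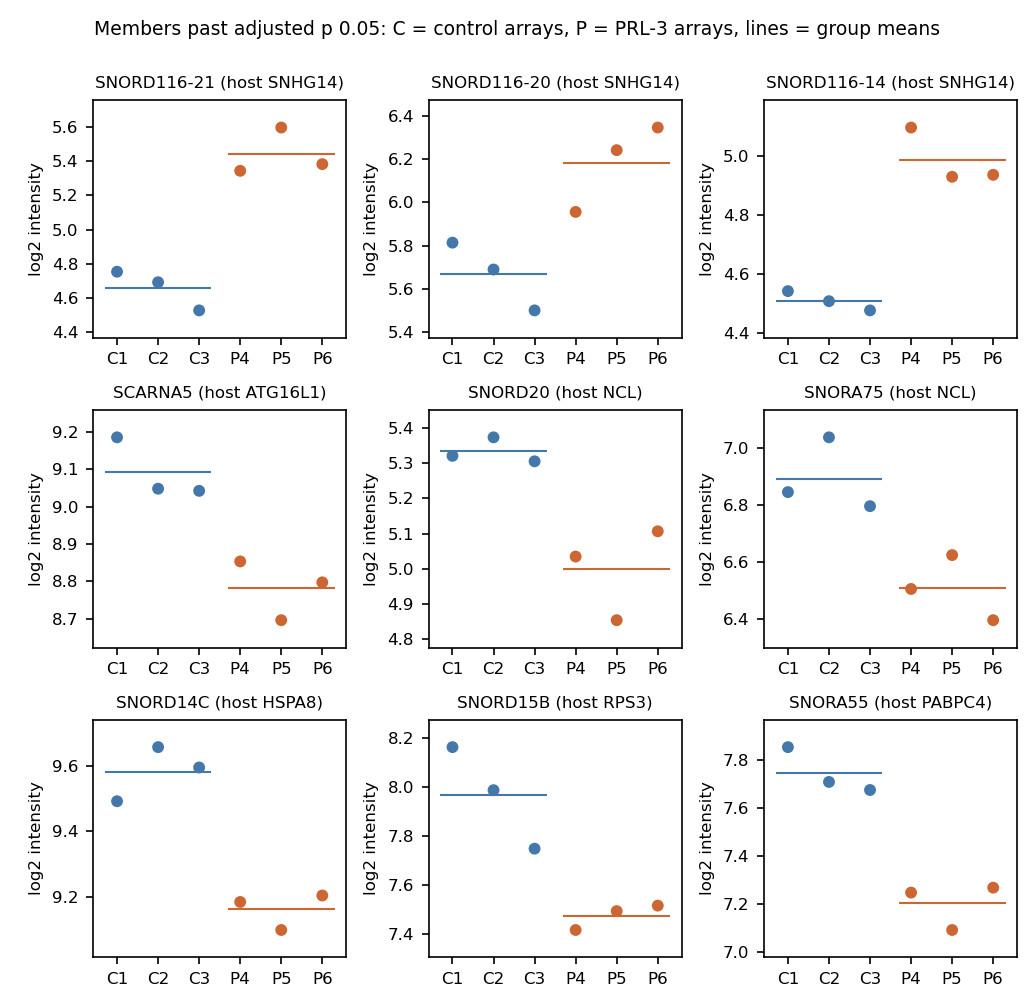
Log2 intensity on each of the 6 arrays for the 9 members past adjusted p 0.05 in limma, with group means as lines; each panel has its own axis range, which does not start at 0. In every panel the 3 control and the 3 PRL-3 arrays are apart, by the widest margin in SNORD116-21 and by a narrow one in SNORD116-20 and SNORA75.

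Among H/ACA genes more lay below 0 than above. The median difference was -0.031 in SNORA, where 42 of 61 genes were below 0, against a median of -0.015 over all genes, of which 10098 of 18377 were below 0. The SNORA groups did not overlap in 14 genes that were lower and 3 that were higher, or 27.9%. Over all genes 24.3% did not overlap, 12.2% lower and 12.1% higher. Only SNORA55 and SNORA75 passed, or 3.28% against 7.69% of all genes. SNORA3A, in the ribosomal protein gene RPL27A, differed by -0.50, from 7.73, 8.01 and 7.76 to 7.67, 7.35 and 6.99 (adjusted p = 0.119, limma). SNORA67, in the translation initiation factor gene EIF4A1, differed by -0.46, with overlapping groups and adjusted p = 0.275. SNORA80E, in KHDC4, had the largest difference of the class, 0.68, and did not pass (adjusted p = 0.43). Of the other bright SNORA genes, SNORA24 in SNHG8 differed by -0.37 (adjusted p = 0.0872), SNORA70G in RAP1B by 0.27 (adjusted p = 0.102) and SNORA80A in URB1 by -0.09, all in limma.

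C/D genes lay on both sides of 0. The median was 0.01 in SNORD, with 63 genes above and 52 below 0. Past the threshold 3 rose and 3 fell, or 5.22% against 7.69% of all genes. Among the 69 outside the large repeat families the groups did not overlap in 6 that were higher and 10 that were lower. That is 23.2%, close to the 24.3% of all genes. SNORD58A, in the ribosomal protein gene RPL17, differed by 0.52, from 7.88, 7.83 and 7.75 to 8.62, 7.97 and 8.43 (adjusted p = 0.0843, limma). SNORD28, in SNHG1, differed by 0.50 with overlapping groups (adjusted p = 0.35). SNORD57, in NOP56, a host whose product is itself a C/D core protein, differed by -0.28 (adjusted p = 0.583). SNORD30, in SNHG1, differed by 0.04 and read 10.34 to 10.58 over the 6 arrays. Next to the threshold, and named after their values were seen, SNORD117 in DDX39B differed by 0.39 (adjusted p = 0.0501) and SNORD32A in RPL13A by -0.36 (adjusted p = 0.0508, limma). Both passed in some alternatives. SNORD117 did so with array weights, averaged probe sets or either filter on dim genes, and without PRL-3 5, alone or together with control 1. SNORD32A did so with quantile normalization, 1 median per array, array weights or the filter at the 25th percentile, and without control 3.

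Cajal body RNAs gave a median of -0.01, with 8 of 16 genes on either side of 0. SCARNA5 was the 1 that passed, or 6.25% against 7.69% of all genes. SCARNA10 in the condensin gene NCAPD2 differed by 0.20, SCARNA8 in HAUS6 by 0.12, SCARNA17 in SNHG22 by 0.10 and SCARNA4 in KHDC4 by 0.09. SCARNA14 in TIPIN differed by -0.14, SCARNA16 in SNHG20 by -0.10, SCARNA23 in the DNA polymerase gene POLA1 by -0.06 and SCARNA1 in PPP1R8 by -0.06. SCARNA11 in CHD4, SCARNA12 in PHB2, SCARNA7 in KPNA4 and SCARNA22 in NSD2 lay from -0.05 to 0.05. None of these 12 passed, and the groups overlapped in all of them but SCARNA23.

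The members stood out more by their spread within groups than by their difference between groups. Spread is given as the SD over 3 arrays, pooled over both groups, in log2 units. Its median was 0.124 in the members and 0.106 over all genes, with 0.111 in SNORA, 0.134 in SNORD and 0.142 in SCARNA. SNORD115 and SNORD116, at 0.035 and 0.077, pulled the SNORD value down; the other SNORD genes had 0.198. The absolute difference between groups had a median of 0.094 in the members and also 0.094 over all genes. It exceeded the pooled SD in 72 of 192 members, or 37.5%, against 45.1% of all genes. Control and PRL-3 groups spread alike, with medians of 0.113 and 0.121 in the members. Among 23 other small nuclear RNA genes the SD in control arrays ran from 0.016 in RNU5D-1 to 0.486 in RNU4-2. Whether the members spread more widely than those genes was not tested.

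The 4 genes with the widest spread of all 18377 were SCARNA9, SNORD82, SCARNA9L and SNORA80E, and 6 of the widest 10 were members, which make up 1.04% of the genes. SCARNA9, a Cajal body guide RNA in CEP295, read 8.61, 9.49 and 10.65 in control and 10.16, 8.41 and 10.43 in PRL-3 arrays. Its SD was 1.02 in control and 1.10 in PRL-3 arrays, while the groups differed by 0.08 ± 0.61 (log2, SE). Its weaker probe set ran in the same order in the control arrays, at 6.73, 7.02 and 7.24, and was also lowest in PRL-3 5, with 7.23, 6.59 and 7.17. SNORD82, a C/D box RNA and the other member carried by NCL, read 7.14, 8.13 and 8.86 in control and 8.57, 6.96 and 8.46 in PRL-3 arrays. Its pooled SD was 0.884, against 0.137 for NCL itself. The probe set of NCL did not share the wide spread of its small RNA, but control 1 and PRL-3 5 were its lowest arrays too. NCL read 12.29, 12.39 and 12.52 in control and 12.54, 12.27 and 12.54 in PRL-3 arrays. CEP295, the host of SCARNA9, had a pooled SD of 0.194 and the same 2 arrays lowest. It read 8.68, 8.97 and 9.01 in control and 8.85, 8.54 and 8.94 in PRL-3 arrays.

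SNORA80E read 7.52, 8.50 and 9.16 in control and 9.40, 8.42 and 9.39 in PRL-3 arrays. Its pooled SD was 0.704 against 0.13 for its host KHDC4. In KHDC4 control 1 and PRL-3 5 were the highest arrays of their groups, with 9.36, 9.02 and 9.14 and then 9.25, 9.32 and 9.20. SNORD114-2 and SNORD113-3, C/D box RNAs of the imprinted chromosome 14 cluster within MEG8, had SDs of 0.589 and 0.533. SNORD114-2 read 7.32, 8.14 and 8.71 in control and 7.91, 7.29 and 8.19 in PRL-3 arrays, and SNORD113-3 read 8.76, 9.37 and 9.69 and then 9.57, 8.67 and 9.79. In all of these small RNAs control 1 was the lowest control array and PRL-3 5 the lowest PRL-3 array.

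**Figure D3:**
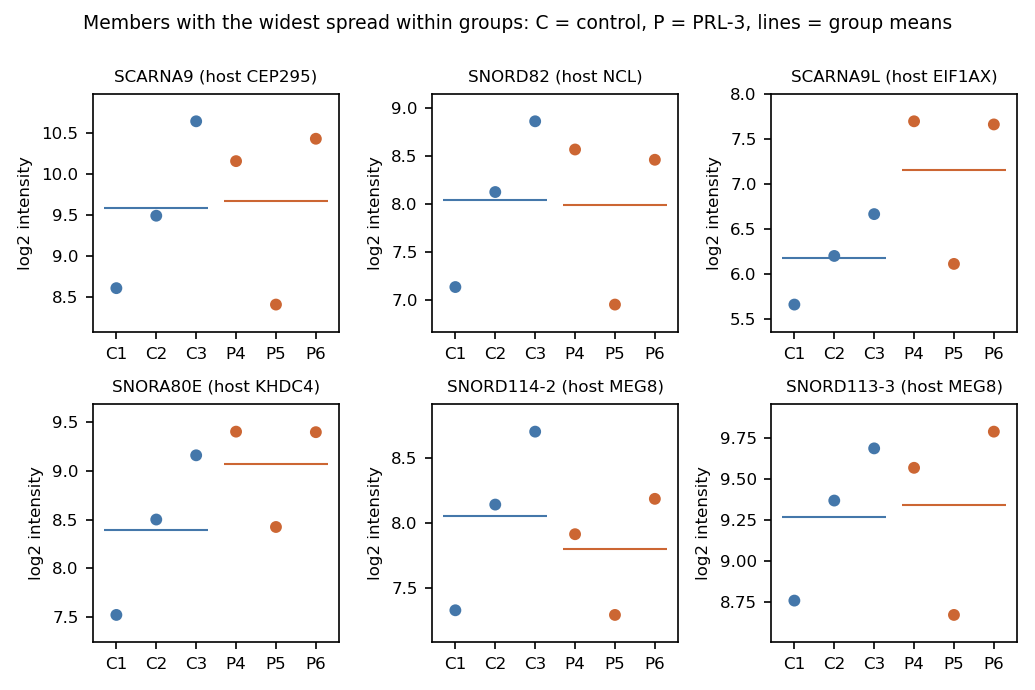
Log2 intensity on each array for the 6 members with the widest spread within groups, with group means as lines; panels have separate axis ranges. In all 6 panels C1 is the lowest control point and P5 the lowest PRL-3 point, and the difference between the group means, at most 0.98 in SCARNA9L, is smaller than the range of values within either group.

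The same 2 arrays were at 1 end in all of the 20 most variable members: both lowest in 16 and both highest in 4. Among the 4 were SNORD35A and SNORD34, both in RPL13A, and SNORA67 in EIF4A1. SNORD35A read 7.83, 7.23 and 6.57 in control and 6.62, 7.26 and 6.79 in PRL-3 arrays. Over all members control 1 and PRL-3 5 were both lowest in 50, or 26%, and both highest in 25, or 13%. Over all genes these shares were 20.9% and 23.7%. Both were lowest in 7 of 16 SCARNA, 33 of 115 SNORD and 10 of 61 SNORA genes. The labels give no batch, and what moved these arrays was not tested. Without these 2 arrays the median pooled SD was 0.102 in the members and 0.088 over all genes.

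SCARNA9L, a relative of SCARNA9 in an intron of the initiation factor gene EIF1AX, joined wide spread to the largest difference among the members. It read 5.66, 6.21 and 6.67 in control and 7.70, 6.12 and 7.67 in PRL-3 arrays, a difference of 0.98 ± 0.424 (log2, SE) with adjusted p = 0.244 in limma. Its second probe set differed by 0.26. Without PRL-3 5 the difference was 1.504 (adjusted p = 0.0146), and without control 1 and PRL-3 5 it was 1.25 (adjusted p = 0.0037, limma). Over the fits that left out 1 array adjusted p ran up to 0.552. Its host EIF1AX had a pooled SD of 0.342, at 10.18, 10.68 and 10.95 in control and 11.02, 10.58 and 11.12 in PRL-3 arrays. Control 1 and PRL-3 5 were again lowest, while PRL-3 6 and not PRL-3 4 was highest in EIF1AX. SCARNA9 and SCARNA9L resemble each other, so each probe set may read part of the other.

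**Figure D4:**
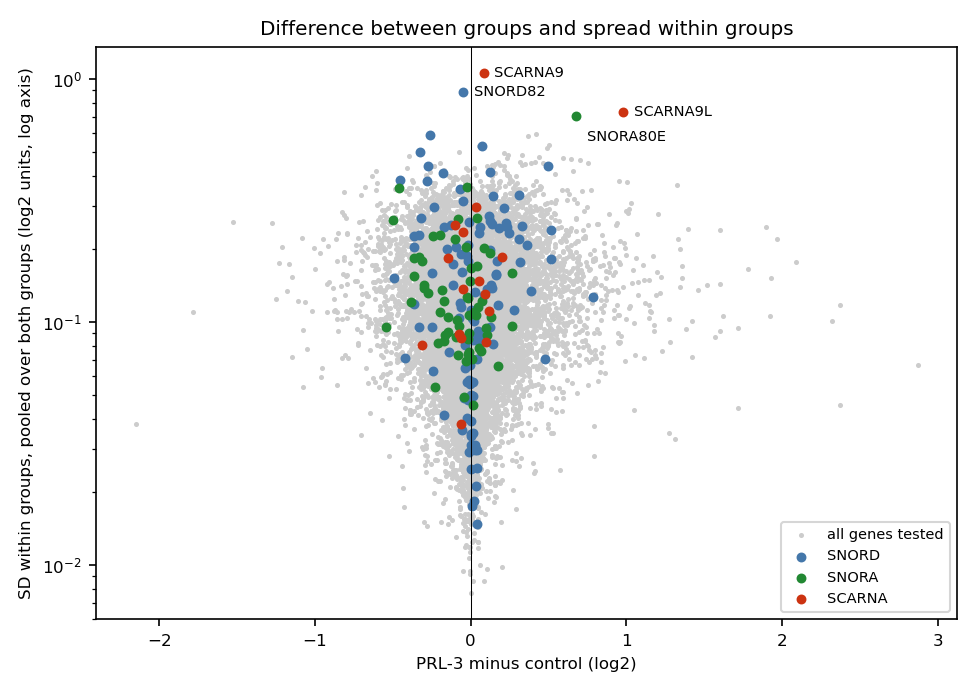
Each point is 1 gene: the log2 difference, PRL-3 minus control, across, and the SD within groups on a log axis upwards, with all 18377 tested genes in grey. SCARNA9, SNORD82, SCARNA9L and SNORA80E lie above every other gene, while most members sit among the rest and within 0.5 of a difference of 0.

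Host genes could be set beside 96 members, in 74 hosts with a probe set of 1 symbol. Member and host differed from control in the same direction in 55 pairs and in opposite directions in 41. Across these pairs the differences correlated at r = 0.35 (Spearman rho 0.34), a description only, since pairs share arrays and some share a host. None of the 6 members that fell had a host that passed. PABPC4 differed by -0.17 (adjusted p = 0.483), HSPA8 by -0.21 (adjusted p = 0.0862), RPS3 by -0.05 (adjusted p = 0.735), ATG16L1 by -0.16 (adjusted p = 0.273) and NCL by 0.05 (adjusted p = 0.854, all limma). NCL was thus at 12.40 in control and 12.45 in PRL-3 arrays while SNORA75 and SNORD20 within it were lower. In HSPA8 and ATG16L1 the groups did not overlap and PRL-3 was lower, as in 12.2% of all genes. In PABPC4, RPS3 and NCL they overlapped. Whether member and host differ in response was not tested.

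Of the 74 measured hosts, 7 passed, where 7.69% of all genes did. They carried 8 members, none of which passed, a number too small to read against that share. These hosts are named after their values were seen. ZFAS1, a non-coding host, rose by 0.47 (adjusted p = 0.00995), and its SNORD12C differed by -0.13. COBLL1 rose by 0.57 with SNORA70F at 0.03, RAP1B by 0.57 with SNORA70G at 0.27, RPL17 by 0.43 with SNORD58A at 0.52 and PPP2R5A by 0.35 with SNORA16B at 0.27. EEF1B2, an elongation factor gene, fell by 0.32 with SNORA41 at 0.06 and SNORD51 at -0.25, and TNPO2 fell by 0.54 with SNORD41 at -0.17. For SNORD58A, SNORA16B and SNORD51 the member and its host differed from control by similar amounts, while SNORD12C and SNORA41 lay on the other side of 0 from theirs.

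**Figure D5:**
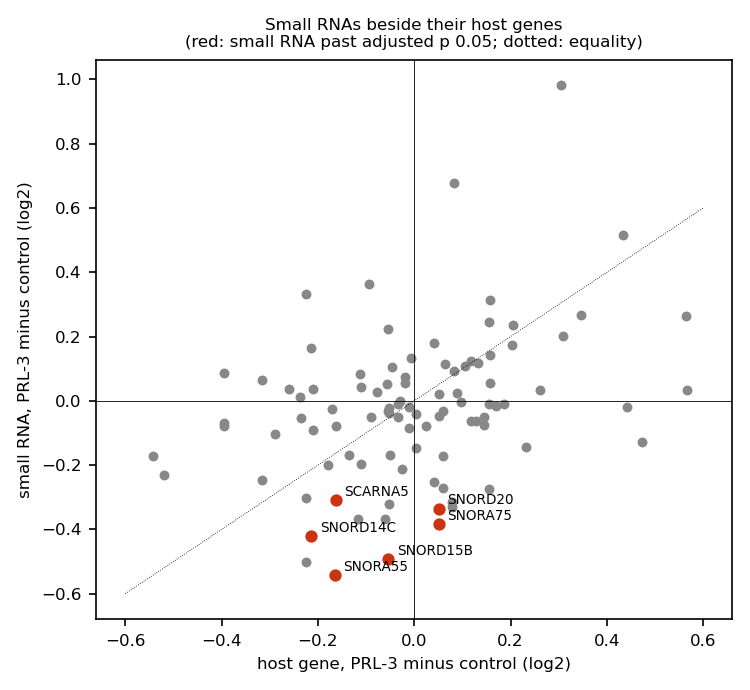
Each point is 1 of 96 members with a measured host: the host's log2 difference, PRL-3 minus control, across, and the member's upwards, with the dotted line marking equality. The 6 red points, members past adjusted p 0.05, lie below the line, at host differences of -0.21 to 0.05.

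The 6 members that fell all lay in protein-coding hosts and the 3 that rose in the non-coding SNHG14. Among the 113 members in protein-coding genes the groups did not overlap in 20 that were lower and 7 that were higher, with a median difference of -0.031. In all 23.9% did not overlap, close to the 24.3% of all genes. Among the 74 in long non-coding hosts these counts were 5 and 7, or 16.2%, and the median was 0.01. The non-coding set holds the 40 SNORD115 and SNORD116 copies. Of the 6 SNORD113 and SNORD114 genes in MEG8, 5 were below 0, with differences from -0.33 to 0.07, and none passed.

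Members of 1 host did not always move alike. Of 28 hosts with more than 1 measured member, 11 held members on both sides of 0. In RPS3, SNORD15B fell while its paralogue SNORD15A differed by 0.22, and in HSPA8, SNORD14C fell while SNORD14E differed by 0.16. GAS5, a growth arrest transcript that serves mainly to carry C/D box RNAs, had 7 members with differences from -0.18 for SNORD81 to 0.31 for SNORD79. None of the 7 passed. In RPL13A all 4 members were below 0, from -0.11 for SNORD33 to -0.46 for SNORD34, and in RPL23A all 3 were above 0, from 0.06 to 0.31; none passed. SNORA20 and SNORA29, in the chaperonin gene TCP1, differed by -0.33 and -0.31 while TCP1 differed by 0.08. Differences between members of a host were not tested.

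Of the genes for proteins that bind, assemble and process these RNAs, 2 passed, both lower. Measured were 2 C/D core, 4 H/ACA core, 12 assembly, 13 Cajal body and cap and 12 processing and decay genes. Of all genes 7.69% passed, 3.11% lower, so these 2 calls are not read as a result about the lists. Of the C/D core, NOP58, a scaffold on which the particle is built, fell by 0.38 (log2, SE 0.068, adjusted p = 0.0144, limma). It read 10.71, 10.58 and 10.65 in control and 10.32, 10.24 and 10.26 in PRL-3 arrays. Fibrillarin, the methyltransferase (FBL), differed by 0.18 and did not pass (adjusted p = 0.272). Among the 4 H/ACA core genes none passed: dyskerin (DKC1) differed by 0.00, NOP10 by 0.23, NHP2 by -0.05 and GAR1 by -0.11. Of 12 measured assembly genes none passed.

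Of 13 measured genes for Cajal bodies and cap maturation 1 fell, TGS1, which makes the trimethylguanosine cap of small nuclear and some nucleolar RNAs. It read 9.87, 9.89 and 9.87 in control and 9.51, 9.42 and 9.47 in PRL-3 arrays, a fall of 0.41 (SE 0.063, adjusted p = 0.00727, limma). Of 12 genes for processing and decay none passed. The deadenylase gene TOE1 had non-overlapping groups at a difference of -0.71 (adjusted p = 0.078). Of 8 measured non-coding hosts and other stable RNAs, ZFAS1 rose and 7 did not pass, with SNHG17 at -0.40 (adjusted p = 0.072, limma). Of 23 other small nuclear RNA genes, such as RNU2-1 and RNU4-1, none passed, and their median difference was 0.08.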

How the data were processed

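The deposited values are linear intensity readings of 28869 probe sets on each of 6 arrays. The authors' summarisation, background correction and normalization were not given in the sources used here; array medians lay close together, so the deposited intensity values were taken as normalized. Per the labels' protocols, biotin-labelled cDNA was made from 100 ng of total RNA. Log2 was taken with no offset. Names came from the annotation of the platform (19310 probe sets with 1 symbol), and all 192 members matched the RefSeq gene table (GRCh38.p14) by Entrez identifier. That table gives no strand, so hosts were assigned by span alone, although a strand match had been planned; where several genes spanned a member, the host was chosen by hand if the choice was clear. For 1 member, SNORA10, the neighbouring probe set numbers lie on another chromosome than the gene; its 2 probe sets read alike.

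The comparison used lmFit and eBayes of limma 3.58.1 (R 4.3.3), two-sided, with p-values adjusted by Benjamini-Hochberg over 18377 genes, after a trial on simulated data. There is no detection call and no floor, and the number of arrays limits the precision. Named members were those past the threshold, the 5 brightest and 5 most different of each class, the 5 most variable, and all SCARNA genes. Members, lists and tests were chosen with earlier results of these data known. The alternatives were array weights, quantile normalization, robust variances with an intensity trend, 1 median per array, an unequal-variance test, averaged probe sets per gene, filters that kept brighter genes, and leaving out arrays.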

Additional observations from a re-analysis of the deposited data

Results flagged for a closer look

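Some calls lay in probe sets that the comparison of genes did not use. Of 76 probe sets whose annotation names a small nucleolar or Cajal body RNA together with at least 1 other gene, 10 passed adjusted p 0.05 in limma fitted on all 28869 probe sets, 10 higher and 0 lower with PRL-3. That is 13.2% of them. Of all probe sets in that fit 4.85% passed, 2.87% higher, but only 19310 of the 28869 have 1 symbol. Among genes with 1 symbol, fitted apart, 7.69% passed, 4.58% higher. The differences of the 76 probe sets ran from -0.39 to 1.51 on the log2 scale, with a median of 0.10, and 25 had an unadjusted p under 0.05. No gene is named from them.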

How the results depend on the processing

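SNORA55 kept its direction and its call in 14 of 15 alternatives; SNORD116-21 and SNORD116-14 kept theirs in 12 of the 13 that tested them, since both filters on dim genes removed them. The unequal-variance test called 0 members higher and 0 lower, with 14 at an unadjusted p under 0.05. Array weights called 18 higher and 29 lower, when 24.1% of all genes passed, and moved the SNORA median to -0.088. Among genes above the 25th percentile of level 1 was higher, and the medians were -0.070 for SNORA and -0.021 for SNORD. The SD was 0.186 (0.115 over all genes), and 26 of 110 members had groups that did not overlap (27.6% of all genes). Above the median level 1 was higher, again SNORD117, and 4 were lower, and the SNORD median was -0.013. The SD was 0.214 (0.122 over all genes), and 28 pairs of member and host had the same sign. There 18 of 76 members did not overlap (31.0% of all genes). These filters test fewer genes. Leaving out 1 array gave 2 (without control 2 or PRL-3 6) to 7 (without PRL-3 5) higher and 1 (without control 2 or PRL-3 4) to 8 (without control 3) lower. It gave medians of -0.063 to -0.040 for SNORA, 0.00 to 0.02 for SNORD and -0.057 to 0.078 for SCARNA. SDs were 0.116 to 0.129 (0.095 to 0.109 over all genes), with 47 to 66 pairs of the same sign. The groups did not overlap in 51 to 61 members (31.0% to 37.6% of all genes). Without control 1 and PRL-3 5 the counts were 5 higher and 6 lower, and the SNORA median was -0.073. The SD was 0.102 (0.088 over all genes) and 79 of 192 members did not overlap (48.6% of all genes), with fewer samples. No paired analysis was possible because the groups share no replicate number.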
